A study of Mus musculus with 4 samples.

Results

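Wnt6, Wnt10a, Wnt1 and Wnt10b are 4 genes for secreted signalling ligands that lie as 2 neighbouring pairs in the mouse genome, and the open chromatin around each pair was compared in facial surface ectoderm. The members were every ATAC-seq peak centred no more than 100 kb from where transcription of a member gene starts, taken from the list of open regions in control ectoderm and from the list of regions more open in control than in mutant ectoderm. This gave 52 of the 68570 intervals in both lists, with 47 control peaks and 5 AP-2-dependent regions. The Wnt6-Wnt10a pair held 24 of the intervals and the Wnt1-Wnt10b pair held 28. ATAC-seq marks open chromatin by where a transposase can insert into DNA. The surface ectoderm of the facial prominences was taken at embryonic day 11.5 from 2 samples of control littermates (Tfap2a flox/+; Tfap2b flox/+, without Crect) and 2 samples of ectodermal double knockouts, called EDKO, which carried Crect together with Tfap2a flox/flox and Tfap2b flox/flox. Every embryo thus carried floxed alleles of both genes. Controls carried a floxed and an unfloxed copy of each, and lacked the transgene that recombines floxed copies. Crect is a Cre transgene driven by an enhancer from a Tfap2a intron, and per the study's methods it often recombines more widely than intended, for which reason it was passed on by the sire and every sire was screened with reporter lines. Tfap2a and Tfap2b encode the transcription factors AP-2α and AP-2β, and an AP-2-dependent region here means only an interval that the peak caller found more open in the combined controls than in the combined EDKO libraries.

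Wnt ligands are lipid-modified glycoproteins that leave the cell and bind Frizzled receptors together with LRP co-receptors on nearby cells. In the canonical branch this stabilises β-catenin, which then acts with TCF/LEF factors on target genes. Wnt10a and Wnt10b are known for roles in ectodermal appendages such as teeth and hair, Wnt6 is a ligand of surface epithelia, and Wnt1 is best known from the dorsal neural tube and the midbrain. The 2 pairs are paralogous, since both descend from an old cluster of neighbouring Wnt genes.

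Each list came from a single call over combined libraries, so no interval had a value per library and no difference between intervals could be set against replicate error. The study states an approximate sequencing depth per sample, but the exact depth of each library was unknown. The values given are the −log10 p at an interval's summit, its highest point, and the area under the curve, which accumulates significance along the interval and therefore grows with width and depth. A −log10 p in the region list is evidence for a difference between control and EDKO libraries and not its size. Intervals more open in EDKO ectoderm were not analysed here. The tissue label was checked at start sites in the control list, where all 14 of 14 surface ectoderm markers had a peak within 1 kb, with a median summit −log10 p of 10.3 and a range of 5.98 to 13.86. Peaks also stood at the start sites of 8 of 9 facial mesenchyme markers (median 5.85, range 4.56 to 10.85, none at Col3a1) and of 4 of 4 neural markers (median 6.65, range 4.06 to 8.38). They stood at 1 of 4 endothelial markers (Kdr, 9.01), and a share of other cells in the libraries was not tested.

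The 5 AP-2-dependent regions are shown first, because they are the only intervals at the 4 genes that were called more open in control than in EDKO ectoderm. The sequences are from GRCm38, the build called mm10, on the strand of the gene named, and those wider than 300 bases are cut to 300 bases around the summit. Capitals mark the AP-2 strings GCCNNNGGC and GCCNNNGGG and the TEAD string GGAATG, each on either strand. The order is the Wnt6 intron (chr1:74781026-74781325, plus strand), the Wnt10a intron (chr1:74794512-74794792, plus strand), the Wnt10b intron (chr15:98775691-98775990, minus strand), and the nearer (chr15:98780316-98780603, minus strand) and farther (chr15:98780836-98781135, minus strand) regions upstream of Wnt10b.
Wnt6 intron: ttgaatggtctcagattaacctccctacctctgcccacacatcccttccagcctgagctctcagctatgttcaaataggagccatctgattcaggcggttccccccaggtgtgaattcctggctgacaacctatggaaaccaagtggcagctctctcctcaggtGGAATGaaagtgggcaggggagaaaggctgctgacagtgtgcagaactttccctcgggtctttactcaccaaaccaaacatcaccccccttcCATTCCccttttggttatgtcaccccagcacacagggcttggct
Wnt10a intron: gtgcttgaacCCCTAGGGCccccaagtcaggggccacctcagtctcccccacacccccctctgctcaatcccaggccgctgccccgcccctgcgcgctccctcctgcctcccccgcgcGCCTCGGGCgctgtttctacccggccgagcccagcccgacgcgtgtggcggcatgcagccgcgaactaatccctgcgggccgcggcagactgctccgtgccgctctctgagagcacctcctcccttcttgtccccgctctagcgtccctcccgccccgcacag
Wnt10b intron: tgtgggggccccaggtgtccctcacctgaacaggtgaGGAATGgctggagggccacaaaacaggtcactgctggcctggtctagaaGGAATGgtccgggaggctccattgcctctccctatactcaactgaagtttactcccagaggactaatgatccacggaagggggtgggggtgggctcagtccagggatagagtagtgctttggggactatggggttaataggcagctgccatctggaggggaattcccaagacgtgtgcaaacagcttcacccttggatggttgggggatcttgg
Wnt10b upstream, nearer: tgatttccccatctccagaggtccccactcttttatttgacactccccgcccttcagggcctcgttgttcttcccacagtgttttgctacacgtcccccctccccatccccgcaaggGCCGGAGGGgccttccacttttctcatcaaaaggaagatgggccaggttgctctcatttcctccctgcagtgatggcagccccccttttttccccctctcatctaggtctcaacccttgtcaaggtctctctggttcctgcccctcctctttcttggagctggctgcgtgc
Wnt10b upstream, farther: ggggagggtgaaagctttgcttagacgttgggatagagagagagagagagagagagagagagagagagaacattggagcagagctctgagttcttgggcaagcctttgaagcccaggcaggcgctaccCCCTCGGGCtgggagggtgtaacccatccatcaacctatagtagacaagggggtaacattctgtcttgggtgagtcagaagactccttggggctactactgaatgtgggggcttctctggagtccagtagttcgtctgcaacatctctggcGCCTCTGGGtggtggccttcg
AP-2 strings stood in the Wnt10a intron and in both regions upstream of Wnt10b. The TEAD string stood in the Wnt6 and Wnt10b introns, and no region held both kinds.

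The 2 pairs were not arranged alike. Wnt6 (chr1:74771892-74785322) and Wnt10a (chr1:74791516-74804179) lay in tandem on the plus strand with start sites 19.6 kb apart. Wnt10b (chr15:98771753-98778150, minus strand) and Wnt1 (chr15:98789857-98793837, plus strand) lay head to head with start sites 11.7 kb apart, so the word tandem held only for the first pair. In proteins translated from the coding exons of GENCODE vM21 principal transcripts, Wnt10a and Wnt10b were identical at 62.9% of 388 aligned residues, whereas Wnt6 and Wnt1 were identical at 48.4% of 341. Within a pair, Wnt6 and Wnt10a shared 45.0% of aligned residues and Wnt1 and Wnt10b shared 45.1%, so the closest relative of each Wnt10 gene was the Wnt10 gene of the other pair.

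Control ectoderm was open across much of all 4 genes. Control peaks covered 64.2% of Wnt6, 63.3% of Wnt10a, 64.8% of Wnt1 and 62.9% of Wnt10b, from start site to transcript end. Of 4934 protein-coding genes with at least 2 coding exons and a length between those of Wnt1 (3981 bp) and Wnt6 (13431 bp), 1.2% were covered as far, and their median was 7.8%. The 15 other Wnt genes had a median of 10.1% and reached at most 31.7%, at Wnt4, a ligand of kidney and female reproductive tract development. They were not matched for length, on which the covered share can depend, since 13 of them are longer than Wnt6. The 2 within the length range, Wnt8a and Wnt16, were covered over 10.1% and 9.9%. A control peak also had its summit inside the coding part of the last exon of each member. The summit −log10 p of that peak was 10.12 at Wnt10a, 8.85 at Wnt6, 4.56 at Wnt10b and 4.34 at Wnt1, so both members of the first pair lay above both of the second. Among the genes of like length, 2.9% had a summit in the last coding exon, and among the other Wnt genes it was 2 of 15. Coverage and summits in the last exon were looked at after the positions of the peaks had been seen, and they describe control ectoderm alone.

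The Wnt6-Wnt10a pair held 22 control peaks, which covered 33.0 kb or 15.0% of the 219.6-kb window, against 1.89% of the assembled chromosomes. The windows were placed at start sites, so values over all chromosomes or all control peaks are not a like reference. Peaks were crowded between the 2 start sites, where 8 of them, those over the start sites included, covered 55.0% of the sequence. The highest summit −log10 p was 12.58, in the peak over the Wnt6 start site, and the third highest was 11.82, in the peak over the Wnt10a start site. The second, at 11.95, lay downstream of the Wnt10a transcript and 16.07 kb from the start site. Summits over the pair ranged from 3.05 to 12.58 with a median of 6.39, compared with 5.10 over all 65467 control peaks, and 15 of 22 lay above that median. The nearest protein-coding start site was that of Wnt6 for 6 of the peaks and that of Wnt10a for 9, with the remaining 7 nearest to other genes.

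The Wnt1-Wnt10b pair held 25 control peaks, which covered 29.5 kb or 13.9% of its 211.7-kb window. Most of them lay nearest to neighbouring genes, as 4 were nearest to Wnt10b, 4 to Wnt1 and 17 to other genes. The 3 highest summits stood at start sites of genes with general cellular roles, with a −log10 p of 11.7 at Rhebl1, a small GTPase of the Rheb family, 11.57 at Arf3, a GTPase of vesicle traffic, and 11.05 at Prkag1, a subunit of AMP-activated protein kinase. Between the start sites of Wnt10b and Wnt1, 3 peaks covered 20.5% of the sequence, a smaller share than between Wnt6 and Wnt10a. These stretches were not alike, because the one from Wnt6 to Wnt10a held all of Wnt6, of which control peaks covered 64.2%. The stretch between Wnt10b and Wnt1 lay outside both genes, so the shares do not compare like sequence. The median summit over the pair was 5.55 and 14 of 25 lay above the median of all control peaks. Other genes were also denser here, with 7 other protein-coding start sites in the window and a peak within 1 kb of all 7, whereas the Wnt6-Wnt10a window held 4 and a peak at 3 of them.

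**Figure D1:**
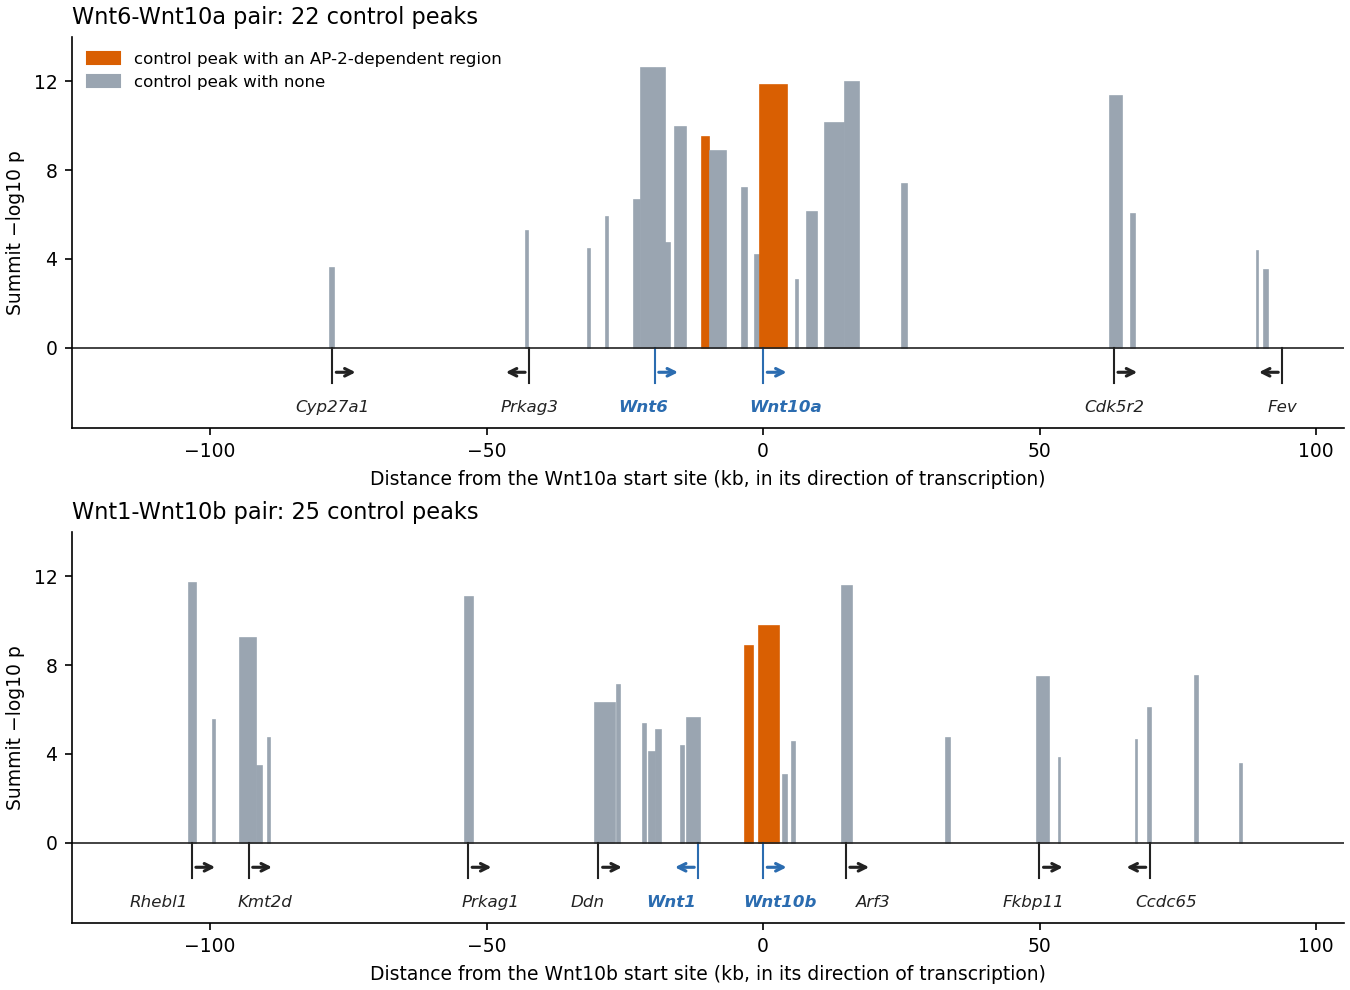
Control peaks at the Wnt6-Wnt10a pair (top) and the Wnt1-Wnt10b pair (bottom), drawn by distance in kb from the Wnt10a or Wnt10b start site in its direction of transcription. Bar height is the summit −log10 p, bar width the peak width, arrows mark start sites and direction, and orange bars hold an AP-2-dependent region: 2 of 22 peaks in the top panel and 2 of 25 in the bottom panel, all of them close to the Wnt genes.

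The remaining peaks nearest to the members were followed outward from each gene. Upstream of Wnt6, peaks stood at −3.19 kb with a summit −log10 p of 6.65 and at −8.54 kb with 5.90. Within Wnt6 intron 1, the summit values were 4.71 at 2.33 kb, 9.92 at 4.69 kb and 9.49 at 9.13 kb, and only the last of these peaks held a region. A single peak of 2950 bp then spanned exons 2 and 3 of Wnt6 and ended within exon 4, past its coding part.

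Between the end of Wnt6 and the start of Wnt10a, 2 lower peaks stood at −3.39 kb (7.19) and −1.11 kb (4.16) from the Wnt10a start site, without a region. Downstream of the start-site peak, Wnt10a intron 2 held peaks at 6.19 kb (3.05) and 8.88 kb (6.13). Peaks of 3467 bp (10.12) over the last exon and 2491 bp (11.95) just beyond the gene followed, and another stood at 25.55 kb (7.37). The downstream end of Wnt10a was thus open in controls at summit values near that of its start site, and none of these peaks held a region.

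Wnt10b had a simpler pattern. Besides its start-site peak and the peak at −2.60 kb (8.88), it had only peaks at 3.94 kb (3.05) and 5.50 kb (4.56), both inside the gene and below the median of all control peaks. Around Wnt1, the start-site peak was joined by peaks at 2.89 kb (4.34), 7.22 kb (5.08) and 8.38 kb (4.11), all below the median and none with a region. No member peak nearest to Wnt1 reached a summit above 5.60, whereas the lowest start-site peak among the other members was 9.77.

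Each of the 4 start sites lay inside a control peak, but the peaks differed in strength and in where they were highest. The Wnt6 peak (chr1:74769488-74773733) was 4246 bp wide with an area of 15190, and its summit stood 1327 bp into the gene, in intron 1. The Wnt10a peak (chr1:74790922-74795899) was 4978 bp wide with an area of 11624, and its summit stood 3188 bp into the gene, in intron 2. At Wnt10b the peak (chr15:98775253-98778881) was 3629 bp wide, reached 9.77 with an area of 12107, and had its summit 1812 bp into the gene, in intron 3. At Wnt1 the peak (chr15:98789553-98791833) was 2281 bp wide, reached 5.60 with an area of 2166, and had its summit 183 bp before the start site.

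Wnt6 was therefore highest and Wnt1 lowest in this series of 4, and which neighbours in that order differ could not be told without values per library. In the list of all control peaks, 97.1% had a lower summit than the Wnt6 peak, 95.3% than the Wnt10a peak, 88.2% than the Wnt10b peak and 58.2% than the Wnt1 peak. By area the figures were 99.7%, 99.1%, 99.3% and 76.2%. The peaks at Wnt6, Wnt10a and Wnt10b were thus among the broadest and largest of the tissue, and the peak at Wnt1 was near the middle by its summit, yet broader than 96.4% of all control peaks.

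**Figure D2:**
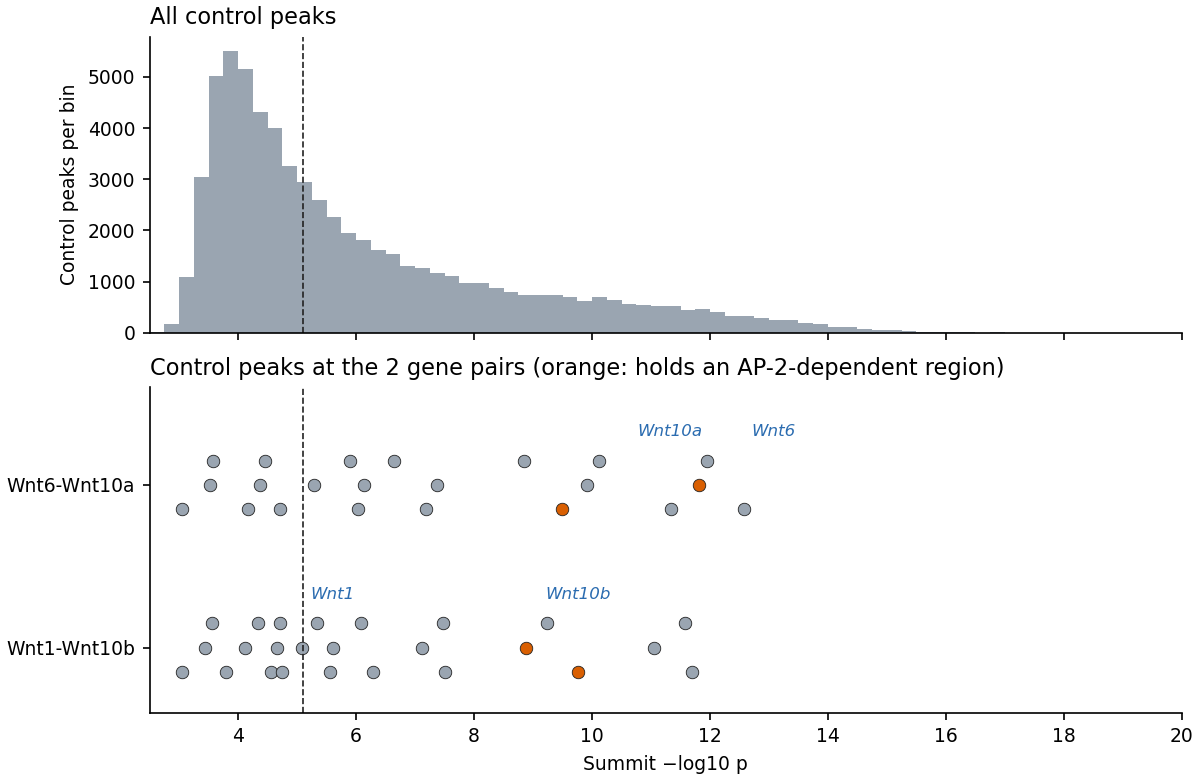
Summit −log10 p of all 65467 control peaks (top, number per bin; 37 peaks above 20 lie off the axis) and of the control peaks at the 2 gene pairs (bottom, 1 point per peak, spread vertically for legibility). The dashed line is the median of all control peaks, 5.10, and the gene names mark the peaks over the 4 start sites, of which Wnt1 (5.60) lies nearest to the median and Wnt6 (12.58) farthest above it.

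Promoter sequences from RefSeq on GRCm38 were matched for 3 of the 4 genes, and the 250 bases before the start site are shown because these promoters were open in controls without an AP-2-dependent region on them. Capitals mark the AP-2 strings.
Wnt6 (chr1:74771642-74771891, plus strand): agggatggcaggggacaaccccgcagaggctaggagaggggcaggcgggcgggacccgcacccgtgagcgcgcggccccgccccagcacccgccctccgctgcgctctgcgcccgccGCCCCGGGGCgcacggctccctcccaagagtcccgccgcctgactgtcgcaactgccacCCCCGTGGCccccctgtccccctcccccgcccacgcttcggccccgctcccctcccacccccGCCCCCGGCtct
Wnt1 (chr15:98789607-98789856, plus strand): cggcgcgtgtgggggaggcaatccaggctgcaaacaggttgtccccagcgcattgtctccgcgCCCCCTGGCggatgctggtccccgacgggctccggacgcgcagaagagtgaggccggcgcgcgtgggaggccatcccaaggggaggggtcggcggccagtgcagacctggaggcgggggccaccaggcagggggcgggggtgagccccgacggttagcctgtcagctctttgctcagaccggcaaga
Wnt10b (chr15:98778151-98778400, minus strand): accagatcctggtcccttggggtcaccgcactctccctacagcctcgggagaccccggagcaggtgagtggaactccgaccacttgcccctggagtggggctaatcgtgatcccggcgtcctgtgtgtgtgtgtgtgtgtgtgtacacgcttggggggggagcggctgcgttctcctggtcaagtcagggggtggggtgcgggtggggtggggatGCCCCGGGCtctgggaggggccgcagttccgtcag
The Wnt6 promoter held GCCNNNGGC at 1 place and GCCNNNGGG at 3, some of them overlapping. The Wnt10b promoter held GCCNNNGGC at 1 place, and the Wnt1 promoter held GCCNNNGGG at 1. Of all 32851 promoters of the same length, 13.7% held GCCNNNGGC and 23.2% held GCCNNNGGG. These 3 promoters, which were not called AP-2-dependent, were rich in G and C, at 79.6% (Wnt6), 71.6% (Wnt1) and 66.8% (Wnt10b). Neither AP-2 string stood in the 2 regions in the Wnt6 and Wnt10b introns. Over all regions GCCNNNGGC stood in 29.7% and GCCNNNGGG in 47.6%, so a region without them is common. Whether the strings bear on AP-2 dependence was not tested. Wnt10a was not matched.

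All 5 AP-2-dependent regions lay wholly inside control peaks and within 9.3 kb of the nearest member start site. In the first pair, Wnt6 had 1 region (chr1:74781020-74781357) in intron 1, with its centre 9.30 kb downstream of the start site. Its summit −log10 p was 5.64 and its area 603.0, and it filled 27.3% of a control peak with a summit of 9.49. Wnt10a had 1 region (chr1:74794512-74794792) in intron 2, with its centre 3.14 kb downstream of the start site. It reached 5.86 with an area of 294.3. This region filled only 5.6% of the peak that spans the Wnt10a start site, but the base with its highest −log10 p was also the summit of that peak. Over all 3103 regions, the summit fell on the same base as that of the control peak around it in 21.7%.

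In the second pair, all 3 regions were nearest to Wnt10b. The first (chr15:98775517-98776011) lay in intron 3, with its centre 2.39 kb downstream of the start site, and reached 5.13 with an area of 660.5. It filled 13.6% of the peak that spans the Wnt10b start site, and its summit stood 497 bp from the summit of that peak. The other 2 shared a control peak in the interval between Wnt10b and Wnt1 (chr15:98780067-98781431), which had a summit of 8.88. The nearer region (chr15:98780316-98780603) had its centre 2.31 kb upstream of Wnt10b and was the weakest of the 5, with a summit of 3.93 and an area of 274.5. The farther region (chr15:98780836-98781361), centred 2.95 kb upstream, was the strongest, with a summit of 6.59 and an area of 889.3. Its summit was 4 bp from the summit of the shared peak. Relative to the Wnt1 start site the centres stood at −9.40 and −8.76 kb, also upstream, so position alone did not tie them to either gene. Of all control peaks with a region, 1.94% held 2 or more.

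By their summits, 4 of the 5 regions lay above the median of all regions, 4.40, with 70.4% to 85.3% of the list below them. The nearer region upstream of Wnt10b lay above 27.7% of the list. By area the farther region upstream of Wnt10b was above 83.5% of all regions, and the Wnt10a region, among the narrower ones, was above 30.2%. None of the 5 was at the top of the list, where by summit the farther region upstream of Wnt10b ranked 457 and the Wnt10a region 613 of 3103.

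The regions in Wnt10a and Wnt10b occupied the matching intron, which is also the longest intron of each gene. What the shared position reflects was not tested. Wnt10a intron 2 and Wnt10b intron 3 both follow a coding exon of 263 bp and both separate the second from the third coding exon, because the first exon of Wnt10b holds no coding sequence. The Wnt10a region was centred 3.14 kb and the Wnt10b region 2.39 kb from its own start site. When the pairs with 20 kb on either side were aligned with each other, 6 matches joined exon to exon, of which 5 joined Wnt10a with Wnt10b and 1 joined Wnt10a with Wnt1, and the only 2 matches that touched a region lay in repeats. In the 201 bases around the summits, the best local alignment of the Wnt10a with the Wnt10b intron region scored 20, counting 2 for each identical base, with 22 of 25 aligned bases identical. The Wnt10a region scored 20 with each of the upstream regions too, and 473 of 3071 other regions scored higher with it. The Wnt6 intron region scored 16 with the Wnt10b intron region, where the median over other regions was 18.

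**Figure D3:**
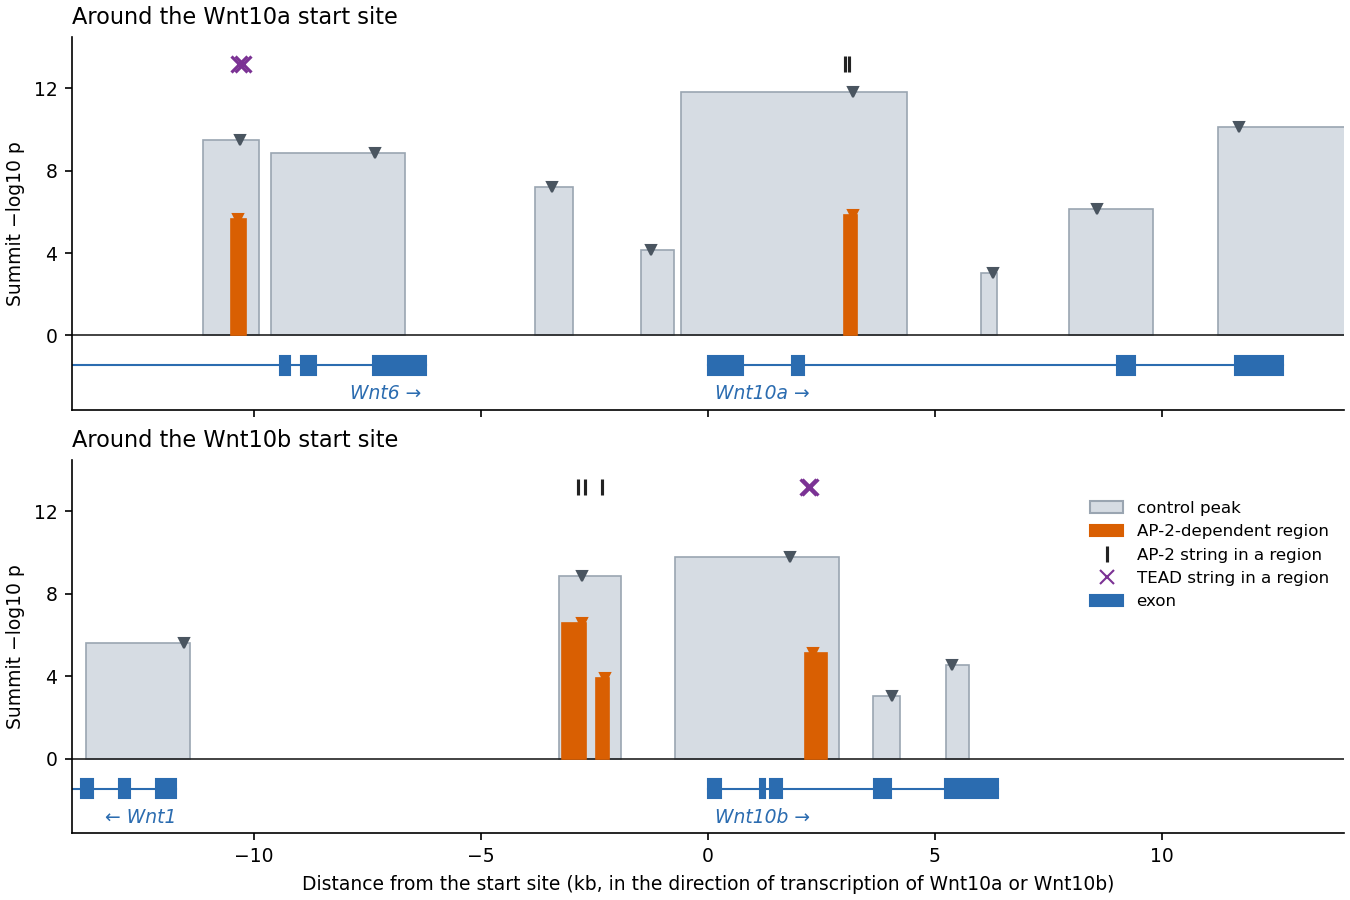
The 14 kb on either side of the Wnt10a (top) and Wnt10b (bottom) start sites, in kb along the direction of transcription. Grey boxes are control peaks and orange boxes AP-2-dependent regions, each as high as its summit −log10 p with a triangle at the summit. Blue boxes are exons, and the marks along the top are AP-2 and TEAD strings inside the regions. A region lies in the intron after the second coding exon in both genes, and 2 more lie upstream of Wnt10b. The control peaks centred in the 5 kb upstream of Wnt10a hold none.

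A region overlapped 2 of 22 control peaks at Wnt6-Wnt10a, or 9.09% (95% Wilson interval 2.53 to 27.8), and 2 of 25 at Wnt1-Wnt10b, or 8.0% (2.22 to 25). Over all control peaks the figure was 4.48%, which lay inside both intervals. The difference, Wnt1-Wnt10b minus Wnt6-Wnt10a, was −1.09 percentage points with an interval from −20.7 to 17.1 (Newcombe). The interval is wide on both sides of 0, so neither a difference nor likeness of the pairs was shown. The difference turned to 11.7 points (−18.7 to 47.1) when only peaks nearest to a member gene were kept, since 2 of 8 such peaks then held a region at Wnt1-Wnt10b and 2 of 15 at Wnt6-Wnt10a. When an overlap had to cover at least 50% of both intervals, both shares were 0. The intervals cover counting error only, and neighbouring peaks are not independent.

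Most of the regions lay near start sites. Centres of 4 of the 5 regions were within 5 kb of a protein-coding start site, against 10.8% of all 3072 regions on the chromosomes. The members were chosen by their distance from start sites, so the 10.8% is not a like reference. Of the 47 member control peaks, 31 also lay within 5 kb of a start site, against 19689 of 65298 control peaks on the chromosomes. Of 31 member control peaks centred within 5 kb of a start site, 3 held a region, against 1.52% of such peaks in the genome. Of 16 farther out, 1 did, against 5.75%. Wnt10b had 3 region centres within 5 kb of its start site, and 28 of 21853 protein-coding genes (0.128%) had at least 3, while Wnt10a had 1, where 1.57% of genes had at least 1. Neither Wnt6 nor Wnt1 had any. With 5 regions these counts are descriptions of the loci.

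The control peaks that held regions had summits of 8.88 to 11.82. Taking all member peaks at or above 8.88, the lowest value of a peak with a region and so a limit set by them, 4 of 13 held one, while the share among all control peaks of that strength was 7.22%. The 9 without a region included the peak over the Wnt6 start site and those at Rhebl1, Arf3 and Prkag1. None of the control peaks nearest to other genes, 7 in the first window and 17 in the second, held a region. Over all control peaks the share was 4.48%, so finding none among so few peaks does not set the Wnt genes apart. Beyond the windows the next region was 548.2 kb from the first pair and 474.8 kb from the second. Just inside and just outside the 100-kb limit, control peaks lay at 91.0 and 100.2 kb (summits 3.52 and 5.14) for the first pair and at 91.5 and 100.7 kb (11.7 and 11.49) for the second.

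AP-2 proteins are known to bind the palindrome GCCNNNGGC and close variants of it, of which GCCNNNGGG, not itself a palindrome, was searched too. In the Wnt10a intron region GCCNNNGGC occurred once, as GCCTCGGGC, 70 bp from the summit, and GCCNNNGGG once on the other strand, as CCCTAGGGC, 178 bp from it. GCCNNNGGG occurred in the nearer region upstream of Wnt10b as GCCGGAGGG, 68 bp from the summit, and in the farther region as CCCTCGGGC and GCCTCTGGG, 72 and 79 bp on either side of it. Whole regions held GCCNNNGGC in 1 of 5 members and 29.7% of all regions, and GCCNNNGGG in 3 of 5 members and 47.6% of all regions.

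GGAATG, the core of the string bound by TEAD factors of the Hippo pathway, occurred at 2 places each in the Wnt6 and Wnt10b intron regions, the nearest of them 16 and 60 bp from the summits. It was in 2 of 5 member regions and in 30.8% of all regions. CTTTGAT, the TCF/LEF string through which β-catenin acts, and AACCGGTT, the string of the epithelial Grainyhead-like factors, were in 0 of 5 member regions, against 9.11% and 0.456% of all regions. The string of the p53 family, which includes the epidermal regulator p63, was in 1 of 5 whole regions (17.9% of all), and the string of the insulator protein CTCF in 0 of 5 (0.0977% of all).

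Within 100 bp of control peak summits, GCCNNNGGC was in 7 of 47 member windows against 14.4% of all control peaks, and GCCNNNGGG in 11 of 47 against 23.3%. The TEAD string was in 6 of 47 against 17.9%, the TCF/LEF string in 3 of 47 against 3.59%, and the CTCF string in 2 of 47 against 2.59%. The p53 family string was in 0 of 47 against 8.68% of all, and AACCGGTT in 0 of 47 against 0.338%. The member windows were richer in G and C, with a median of 58.7% against 53.2% over all control peaks. All 5 region windows were likewise above the median of all regions, 48.8%, and the Wnt10a region, at 72.2% over its whole width, was the richest of the 5.

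The authors' alignment kept up to 10 places per read, so the uniqueness of the sequence was measured. Of 47 control peaks, 45 had at least 95% of their 31-base words at a single place in the reference chromosomes. The 5 regions had 96.2% to 100%. The exceptions were a peak 3.19 kb upstream of Wnt6 (84.9%) and a peak near Fkbp11 (71.9%), and neither held a region.

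Among the 19 Wnt genes, the 4 members had many control peaks nearby: 25 within 100 kb of Wnt1, 24 of Wnt10b, 22 of Wnt10a and 20 of Wnt6, with a family range of 6 to 32 and a median of 19. Over all protein-coding genes the median was 8, and 90.7% to 96.6% of genes had fewer than the members. The windows of paired genes overlap, so Wnt6 with Wnt10a and Wnt1 with Wnt10b shared most of these peaks. Regions within 100 kb numbered 3 at Wnt1 and Wnt10b and 2 at Wnt6 and Wnt10a, and 9 of the 15 other Wnt genes had at least 1. Over all 21853 protein-coding genes, 20.2% had at least 1. The largest counts among the 19 Wnt genes were 8 at Wnt9b and 7 at Wnt3, ligands of the facial ectoderm that are themselves neighbours. Within 5 kb of the start site, only Wnt10b (3), Wnt3 (2) and Wnt10a (1) of the 19 had a region centre.

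By numbers of control peaks and of regions in 2 distance classes, within 5 kb and from there to 100 kb, the gene most like Wnt10b was Wnt10a, with a summed difference of 5, and the gene most like Wnt10a was Wnt4, with 3. Wnt1 was most like Wnt3a, with 4, and Wnt6 most like Wnt4 and Wnt7b, with 5 each. At the start site, 18 of the 19 genes had a control peak within 1 kb. The Wnt6 peak, at 12.58, was the highest, followed by Wnt9b at 12.2, Wnt10a at 11.82, Wnt3 at 11.43 and Wnt10b at 9.77, whereas Wnt1, at 5.60, had only Wnt8a, at 4.93, below it.

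**Figure D4:**
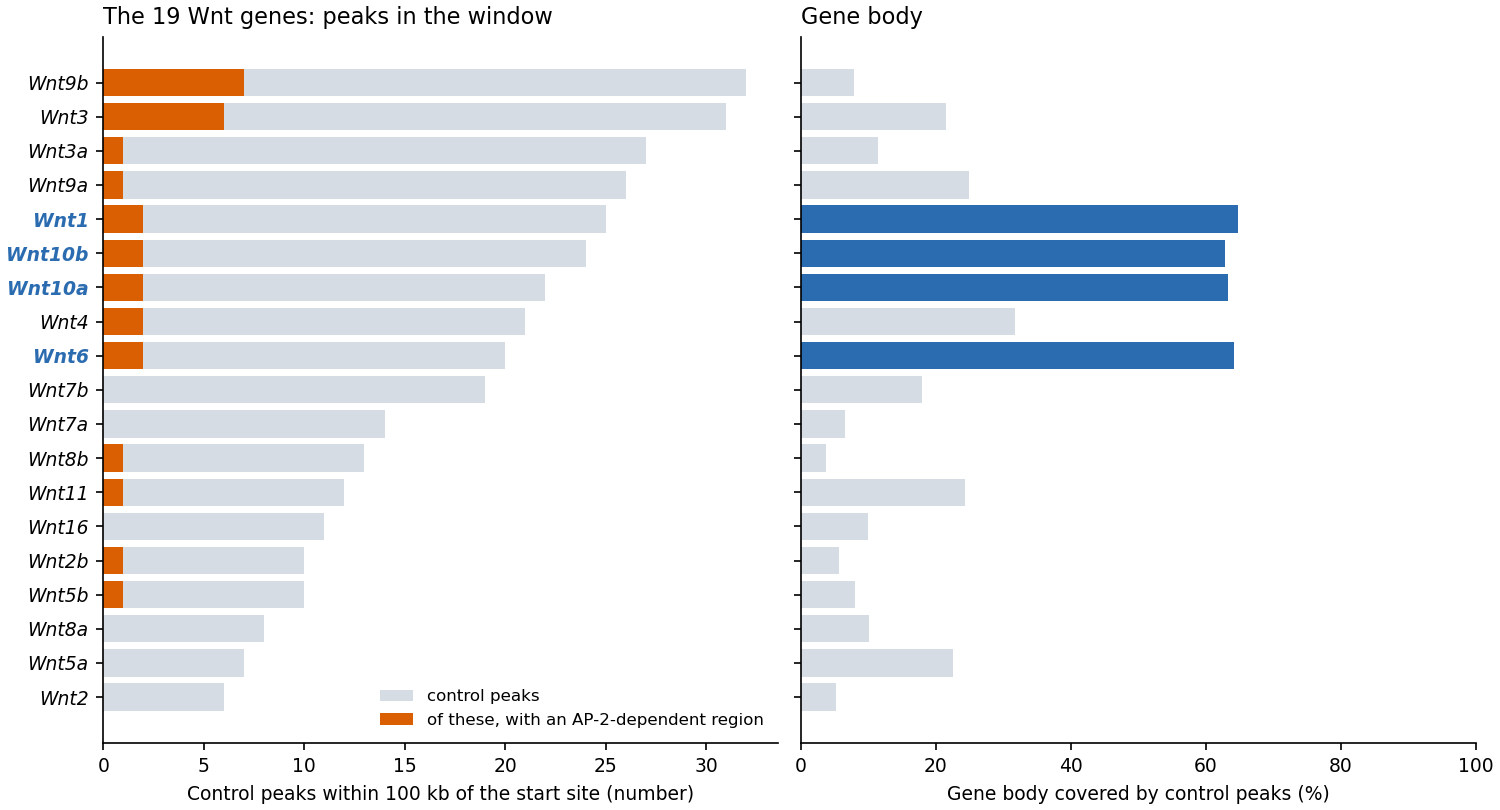
The 19 Wnt genes ordered by the number of control peaks with centre within 100 kb of the start site (left; orange is the number that hold an AP-2-dependent region), with the percent of each gene body covered by control peaks (right). The 4 member genes, in blue, lie in the upper part of the left panel and between 62.9% and 64.8% in the right panel, where no other Wnt gene passes 31.7%, though 13 of those 15 are longer genes.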

How the data were processed

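ATAC-seq libraries came from facial surface ectoderm of 2 control and 2 EDKO samples. Per the study's methods, the authors trimmed adapters with NGmerge, aligned to mm10 with Bowtie2 (up to 10 places per read), sorted with SAMtools, and called peaks with Genrich, which removed PCR duplicates, left out the mitochondrial genome and centred intervals on transposase cut sites. Controls were called together, and again with the EDKO libraries as background. The study names a version for Genrich, and those of the other 3 tools are not given in the sources used here. The deposited −log10 p is that of the summit, not adjusted. The deposited scores are the area under the curve and 1000 times area per base, capped at 1000, and a deposited offset places the summit.

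From these lists, Python 3.11.15 with pandas 2.3.3 and scipy 1.17.1 assigned peaks to the principal transcripts of GENCODE vM21 (the most 5′ where several tied), with overlaps from 1 bp. Overlaps, nearest start sites and string searches were tested on simulated data. Peaks on unplaced contigs (169 control peaks and 31 regions) stayed in the counts over the whole lists but not in those by start site or string. Shares have 95% Wilson intervals. No p-value was computed, since neither list holds a value per library and peaks are not replicates. Blastn compared the loci at an E-value limit of 1e-05, and Biopython 1.88 aligned regions and proteins. Named items were the 4 members, every member region with the control peak around it, the peak at each start site, the 3 highest summits at each pair with their nearest genes, and the 15 other Wnt genes. The other peaks nearest to a member, those over last exons and the peak at Fkbp11 were added after their values were seen. The members and lists were chosen with earlier results of these data known. The alternatives were other distance limits, the summit, all start sites, a larger area, a stricter overlap, and other string searches. A check of blood markers is not reported here.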

Additional observations from a re-analysis of the deposited data

How the results depend on the processing

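No paired analysis was possible because both lists were called over combined libraries, and for the same reason no library could be left out. Of 61 recomputed values, 49 kept within the limits set for the value reported. For the shares and their difference the limits were the wide intervals of the reported values, with the sign kept too for the difference. The 49 is therefore a weak measure of stability. The difference in shares between the pairs, −1.09 points, changed sign to 2.52 with a 50-kb limit, 4.97 with an area of at least 500 and 11.7 with only peaks nearest to a member, and each time its interval spanned 0. An overlap of at least 50% of both intervals took both shares to 0.0, because no region fills as much of its control peak. At Wnt1-Wnt10b, the number of control peaks was 14 within 50 kb, 58 within 250 kb and 8 when nearest to a member, which raised the share to 25%. The number of regions stayed at 3 and 2 within 50 and 250 kb. With an area of at least 500, 1 region was left at Wnt6-Wnt10a and 0 of its regions held GCCNNNGGC, as the Wnt10a region fell below the limit. The string GCCNNNGGG in place of GCCNNNGGC raised the count at Wnt1-Wnt10b from 0 to 2. The exact depth of each library was unknown, so a missing region is no evidence that a site was unaffected.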

Other observations

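A further control peak inside Wnt6 intron 1 (chr1:74775656-74777501) had a summit −log10 p of 9.92 and an area of 5400, with no AP-2-dependent region. Its position was taken from protein-coding genes only, and whether it overlaps a non-coding gene was not tested. ATAC-seq carries no strand, so a position in the intron does not assign the interval to Wnt6. Apart from the start-site peak, the Wnt6 intron thus held 2 strong peaks of like height, at 9.92 and 9.49, and only the latter, nearer to exon 2, held a region. The start-site peak, whose summit of 12.58 also stood in this intron, held none.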
